A study of Mus musculus with 6 samples.

Results

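The cells described here are the Fabp6-high distal enterocytes of the mouse small intestine, 684 of the 26045 cell barcodes that passed quality limits (2.63%) and of 26153 deposited. A barcode marks 1 droplet, in most cases 1 cell, and a UMI marks 1 captured RNA molecule. A member had at least 500 genes, at most 25% of its UMIs from mitochondrially encoded genes, at least 20 Fabp6 UMIs per 10000, no Ada UMI, and under 30 UMIs per 10000 of the goblet cell genes Zg16, Clca1, Fcgbp and Muc2 summed. Past the Fabp6 limit lay 722 barcodes, of which 18 were lost to Ada and 20 to the goblet genes. The comparison class, called apolipoprotein-high below, held 516 barcodes with the same limits on quality, Ada and goblet genes, no Fabp6 UMI, and at least 50 UMIs per 10000 of Apoa1, Apoa4 and Apoc3 summed. The genes named in these rules are described without a test.

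The series holds 6 single-cell libraries of small-intestinal epithelial cells, made with the 10x Chromium 3′ version 2 kit. All came from C57BL/6J mice 8 weeks old. In 3 libraries the genotype is given as wild-type and in 3 as Itgb7-/- (titled Itgb7 KO), and no other allele or treatment is named. The labels do not say how many animals a library came from. In the main tests, p-values for genotype within members and for the share of members rest on the spread between libraries. Those that compare members with apolipoprotein-high barcodes rest on how that difference varied from library to library. Either spread may be partly technical. Itgb7 encodes the β7 integrin subunit of gut lymphocytes, and the series title places the study in T cell control of intestinal stem cell fate. Members held no Itgb7 UMI in any library. Wild-type replicates 1, 2 and 3 held 3, 8 and 2 Itgb7 UMIs among all kept barcodes, against 18, 33 and 12 where the label is Itgb7 KO. That goes against the label, although a 3′ tag outside the deleted part would check nothing, so the group is called "labelled Itgb7 KO" throughout.

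Bile acids are made in the liver, released into the gut with meals and taken back up mainly in the terminal ileum. There the apical transporter Slc10a2 brings them into the enterocyte, the cytosolic carrier Fabp6 binds them, and the basolateral pair Slc51a and Slc51b exports them to the portal blood. Inside the cell they activate the nuclear receptor FXR (Nr1h4), which works with RXR and induces Fabp6, Slc51a, Slc51b and the hormone gene Fgf15. Fat absorption with apolipoprotein secretion is by contrast strongest in the proximal gut, where Fabp1 is the abundant fatty acid carrier.

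The upstream sequences of the 3 marker genes are shown because FXR and RXR are known to bind inverted repeats of AGGTCA with 1 base between the repeats. Sequences are from RefSeq on GRCm38.p6, 5′ to 3′ on the gene's strand, and cover the 250 bases before the start. Capitals mark matches to GGTNANTNACC, a loose form of that repeat chosen after these promoters had been looked at. The Slc51b match is shown with 8 bases on each side only, since GENCODE M21 places the start of that gene (position 65422955) within its window, inside the match itself.

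Fabp6, chr11:43601563-43601812, minus strand: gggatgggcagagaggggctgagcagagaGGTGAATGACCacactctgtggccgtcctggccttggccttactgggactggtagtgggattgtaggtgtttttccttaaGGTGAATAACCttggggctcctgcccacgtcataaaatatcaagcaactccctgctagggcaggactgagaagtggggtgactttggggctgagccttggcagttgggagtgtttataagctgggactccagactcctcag
Slc51a, chr16:32487880-32488129, minus strand: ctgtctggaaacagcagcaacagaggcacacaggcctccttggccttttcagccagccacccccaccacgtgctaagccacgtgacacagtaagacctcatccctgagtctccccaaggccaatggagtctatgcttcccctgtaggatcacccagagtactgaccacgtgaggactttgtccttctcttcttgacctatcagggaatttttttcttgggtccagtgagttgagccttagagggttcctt
Slc51b, chr9:65422941-65422967, minus strand: attcgtggGGTCATTCACCctggactg

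The Fabp6 window holds GGTGAATGACC from 221 to 211 bases before the start and GGTGAATAACC from 141 to 131 bases before it. The Slc51b window holds GGTCATTCACC from 186 to 176 bases before its RefSeq start, and the Slc51a window holds no match. By the GENCODE start, the Slc51b match does not lie wholly upstream of the gene. The motif is its own reverse complement, so each match covers both strands. The loose motif lay in 72 of 32851 mouse promoter windows of this length (0.219%), the strict form AGGTCANTGACCT in 2 (0.00609%) and the single repeat AGGTCA on either strand in 4607 (14%). Of the 15 genes on the bile acid list 12 had a window, and Fabp6 and Slc51b were the ones with the loose motif. Since that motif was chosen after these promoters had been looked at, its share over all windows is no test of them. The single repeat lay in the windows of Abcc2, Nr1h4, Rxra, Slc51a and Slc51b and not in that of Fabp6. A match is a description of the letters and not a binding site.

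Deposited libraries differed in depth, with 28475253 to 76133693 UMIs and with a smallest UMI total per barcode from 1417 to 13621. Members numbered 103, 130 and 200 in wild-type replicates 1, 2 and 3, and 76, 76 and 99 in the libraries labelled Itgb7 KO, with 590040 to 2389741 UMIs summed per library. Apolipoprotein-high barcodes numbered 19, 121 and 37 in wild-type and 24, 261 and 54 in the other group. A Fabp6 UMI was found in 87.0%, 22.6% and 56.8% of kept barcodes in wild-type and 71.9%, 14.8% and 13.3% in the other group. The limit of no Fabp6 UMI thus excluded unequal shares of barcodes between libraries. With Fabp6 under 1 per 10000 instead, the class numbered 66, 140 and 53 in wild-type and 52, 272 and 54 in the other group. Median UMIs per member ran from 6048 to 21349 and those per apolipoprotein-high barcode from 7344.5 to 21052. The same barcode sequence occurred in 2 libraries 12 to 42 times per pair of libraries, and no member shared its sequence with a member of another library. Values below are UMI counts per 1000000 UMIs of the class (CPM) in each library.

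Fabp6, the gene that chose the members, is given first as a description. Fabp6 (ENSMUSG00000020405, chromosome 11, positions 43596049 to 43601540, minus strand, mm10) stood at a median of 74.7, 70.4 and 91.4 UMIs per 10000 per member in wild-type replicates 1 to 3. The medians in the libraries labelled Itgb7 KO were 102, 76.2 and 64.8. Over libraries the 10th percentile of members was 26.4 to 27.8 per 10000 and the 90th percentile 230.2 to 356, and the highest single member reached 946. Members held 73.0% to 86.3% of all Fabp6 UMIs of their library, which follows from the limit. Fabp6 RNA also occurred at low level in cells that should lack it: 9.48% to 84.8% of goblet-high barcodes (at least 100 UMIs per 10000 of the 4 goblet genes) had a Fabp6 UMI, with a median of at most 0.843 per 10000 and median depths of 5852 to 20364 UMIs. Goblet-high barcodes at 20 per 10000 or more numbered 4, 3 and 3 in wild-type and 0, 1 and 0 in the other group. Slc51a averaged 309.6 CPM over libraries in the 49 members just inside the limit (20 to 25 Fabp6 UMIs per 10000). In the 68 barcodes just outside it (15 to 20) it averaged 273 CPM. The highest inside value, 613 CPM in replicate 2 labelled Itgb7 KO, came from 5 barcodes. In wild-type replicate 3 (172 against 183 CPM) and replicate 1 labelled Itgb7 KO (197 against 295 CPM) Slc51a was lower inside. Reg3b averaged 6291 CPM inside and 9705 CPM outside.

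**Figure D1:**
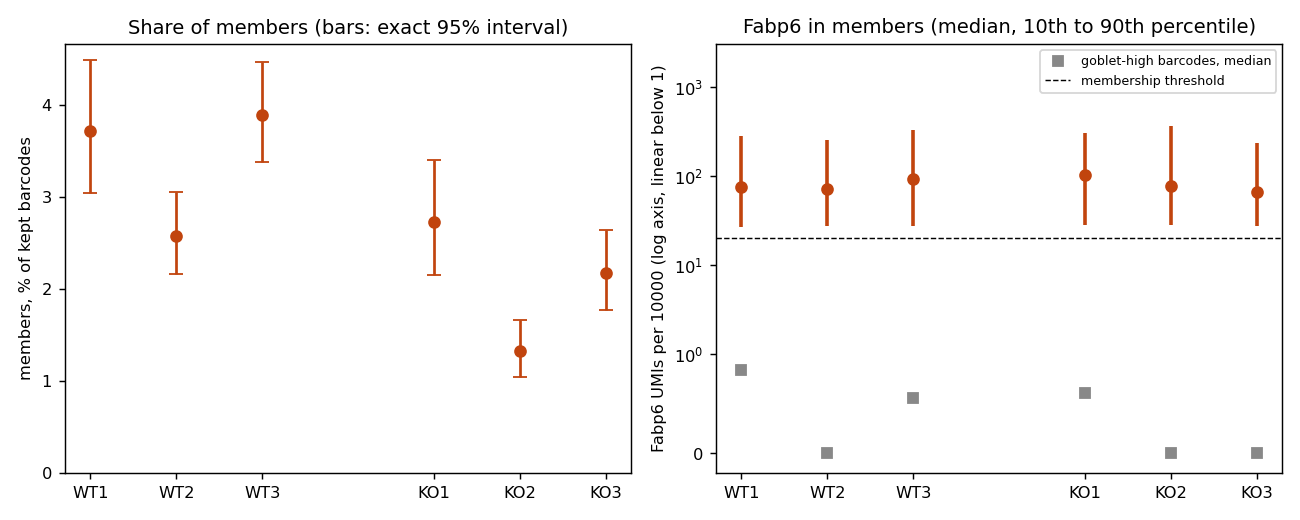
The left panel plots members as a percentage of kept barcodes in each library (points; bars are exact 95% binomial intervals), and the right panel Fabp6 UMIs per 10000 in members (median and 10th to 90th percentile) with the median of goblet-high barcodes (squares) on a log axis that is linear below 1. Member shares run from 1.33% to 3.89% with overlapping groups, and member medians lie between 64.8 and 102 while goblet-high medians lie below 1.

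FXR induces the bile acid exporter genes as well as Fabp6, so their level in cells chosen for Fabp6 is not an independent check of the distal label. The rule itself did not use the genes of the exporter. Slc51a (ENSMUSG00000035699, chromosome 16, positions 32474504 to 32487879, minus strand) encodes its α subunit and stood at 510.1, 401 and 328 CPM in wild-type members and at 474, 552 and 361 CPM in members of the libraries labelled Itgb7 KO. The apolipoprotein-high barcodes held 298, 279 and 222 CPM and 289, 278 and 311 CPM. The lowest member library thus lay above the highest apolipoprotein-high library, and Slc51a was higher in members by 0.53 ± 0.08 on the log2 scale (± SE, edgeR adjusted p = 8.29e-07, higher in 6 of 6 libraries). Slc51b (ENSMUSG00000053862, chromosome 9, positions 65412714 to 65422955, minus strand), the β subunit, stood at 340.2, 314 and 268 CPM and at 356, 329 and 312 CPM in members. It stood at 244, 218 and 177 CPM and at 241, 194 and 191 CPM in apolipoprotein-high barcodes. Those ranges did not overlap either (log2 difference 0.48 ± 0.07, edgeR adjusted p = 1.33e-06). All other kept barcodes averaged 66.3 Slc51a CPM and 32.4 Slc51b CPM, so both exporter genes followed the order members, apolipoprotein-high, others. After thinning each cell to 2000 UMIs, a Slc51a UMI was found in 55.4% ± 9.8 of members and 44.4% ± 11.2 of apolipoprotein-high barcodes (SD, n = 6), and before thinning in 90.4% and 94.8%. In replicate 1 labelled Itgb7 KO the thinned share was lower in members (57.9% against 66.7%), and in the other libraries it was higher.

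Slc10a2 (ENSMUSG00000023073, chromosome 8, positions 5083219 to 5105351, minus strand), the apical uptake transporter, was sparse and most frequent in members. It stood at 13.8, 11 and 9.85 CPM in wild-type members and 12.9, 13.2 and 11.9 CPM in members of the other group. In apolipoprotein-high barcodes it had 0 UMIs in 4 libraries, 1.37 CPM in wild-type replicate 2 and 0.718 CPM in replicate 2 labelled Itgb7 KO. Members held 102 Slc10a2 UMIs among 8475439, apolipoprotein-high barcodes 4 among 5901744, and all other barcodes 99 among 337100203. The gene lay below the count filter of the class comparison and was not tested there. Among cells as sequenced, 10.8% of members and 0.403% of apolipoprotein-high barcodes had a Slc10a2 UMI (means over 6 libraries).

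Nr1h4 (ENSMUSG00000047638, chromosome 10, positions 89454234 to 89533585, minus strand), which encodes FXR, stood at 100.4, 103 and 78.3 CPM in wild-type members and 103, 75.7 and 83 CPM in members of the other group. Apolipoprotein-high barcodes held 52.2, 41 and 29.2 CPM and 28.6, 33.4 and 49.6 CPM. The ranges did not overlap, with a log2 difference of 1.12 ± 0.13 (edgeR adjusted p = 9.65e-09). Its partner Rxra did not pass the test (-0.01 ± 0.19, edgeR adjusted p = 0.981). The FXR target Fgf15 was uneven, at 1.67, 21.3 and 7.97 CPM in wild-type members and 21.6, 29.6 and 8.47 CPM in the other group, and was too low for the class test. In wild-type it averaged 10.3 ± 9.99 CPM in members and 7.80 ± 11.6 CPM in apolipoprotein-high barcodes (SD, n = 3). The other group held 19.9 ± 10.7 CPM and 3.73 ± 1.43 CPM. The apical conjugate pump Abcc2 was lower in members (11.3 ± 3.7 CPM against 51.9 ± 19.1, SD, n = 6; log2 difference -2.28 ± 0.19, edgeR adjusted p = 5.61e-12), as was the basolateral pump Abcc3 (-0.91 ± 0.25, adjusted p = 0.00308). Of the 15 bile acid genes 6 could be tested, and 3 were higher and 2 lower in members. Over all 6736 genes tested 19.5% were higher and 22.5% lower. The median log2 difference of the 6 was 0.24, against 0.02 over all genes.

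**Figure D2:**
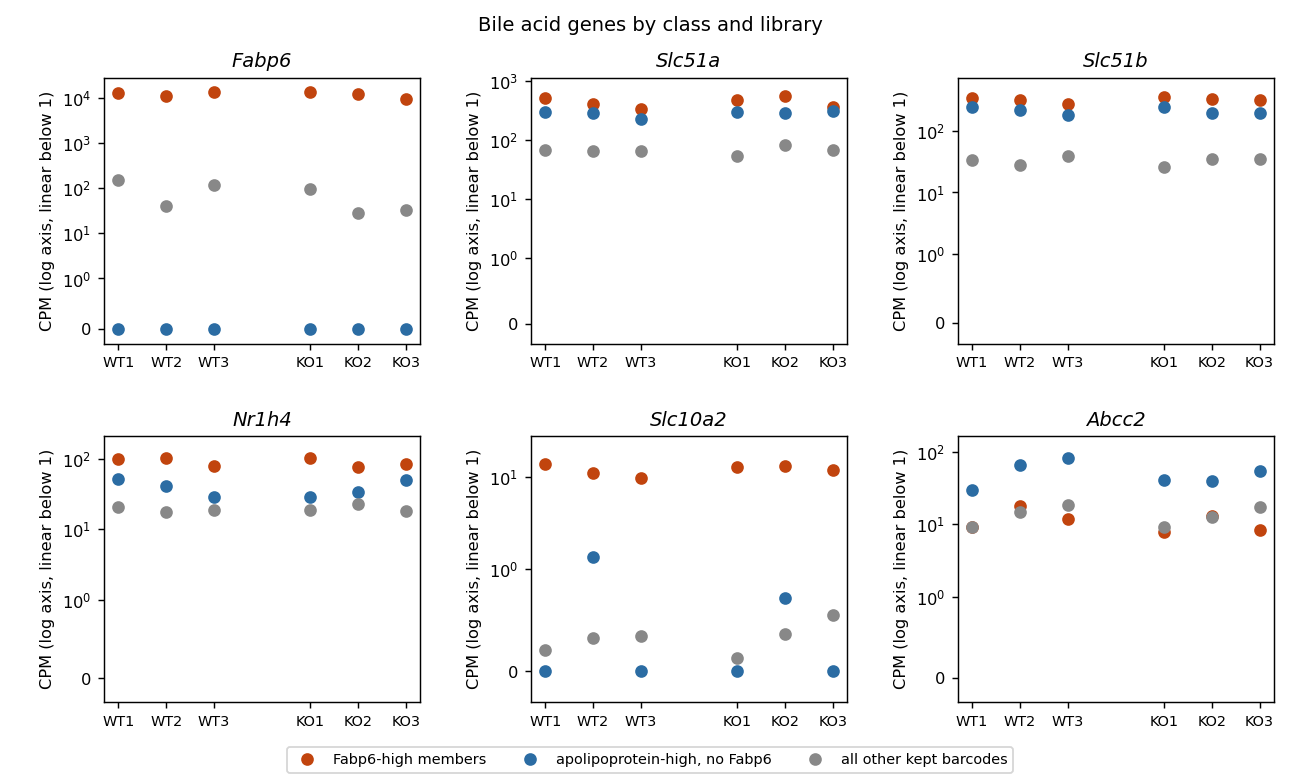
CPM of 6 bile acid genes in each library (log axis, linear below 1) for members, apolipoprotein-high barcodes and all other kept barcodes. For Slc51a, Slc51b and Nr1h4 every member library lies above every apolipoprotein-high library, Slc10a2 lies near 12 CPM in members, and Abcc2 is lower in members.

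Vitamin B12 bound to intrinsic factor is also taken up in the ileum, through cubilin (Cubn) and amnionless (Amn). Cubn had 18 UMIs in members and 0 in apolipoprotein-high barcodes, where 3 counts would correspond to 0.508 CPM, and was too sparse to test. Amn stood at 81.6 to 128 CPM in members and 99.0 to 138 CPM in apolipoprotein-high barcodes and did not pass the test (-0.19 ± 0.10, edgeR adjusted p = 0.144). Of the 9 cobalamin genes 4 were tested. None was higher and 2 were lower, where 19.5% and 22.5% of all genes were, namely the transport protein gene Tcn2 (-0.76 ± 0.10) and the lysosomal exporter gene Lmbrd1 (-0.67 ± 0.14).

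Over the whole transcriptome members differed widely from apolipoprotein-high barcodes of the same libraries. Of 6736 genes tested, 1314 (19.5%) were higher in members and 1513 (22.5%) lower (edgeR quasi-likelihood test with the library as block, Benjamini-Hochberg adjusted p under 0.05). Every list count of this comparison is to be read against these shares. Both classes were selected by their genes, so genes that vary with Fabp6 or with the apolipoproteins differ in part by that choice. Members also held more RNA of dividing cells: the 13 proliferation genes summed to 964 to 1375 CPM in members, 339 to 449 CPM in apolipoprotein-high barcodes and 2377 to 3293 CPM in the others. At least 10 proliferation UMIs per 10000 were found in 166 of 684 members (19.7% to 28.5% per library) and in 7 of 516 apolipoprotein-high barcodes. Of all kept barcodes, 52.7% to 61.4% per library reached that limit, so members lay below the library as a whole. Without those barcodes, an alternative chosen after seeing the data, 1118 genes were higher and 1179 lower, with 967 and 1165 of them shared with the full comparison. The median mitochondrial share was lower in members of each library (4.13% to 5.85% against 4.87% to 6.70%), and its part in these differences was not tested.

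**Figure D3:**
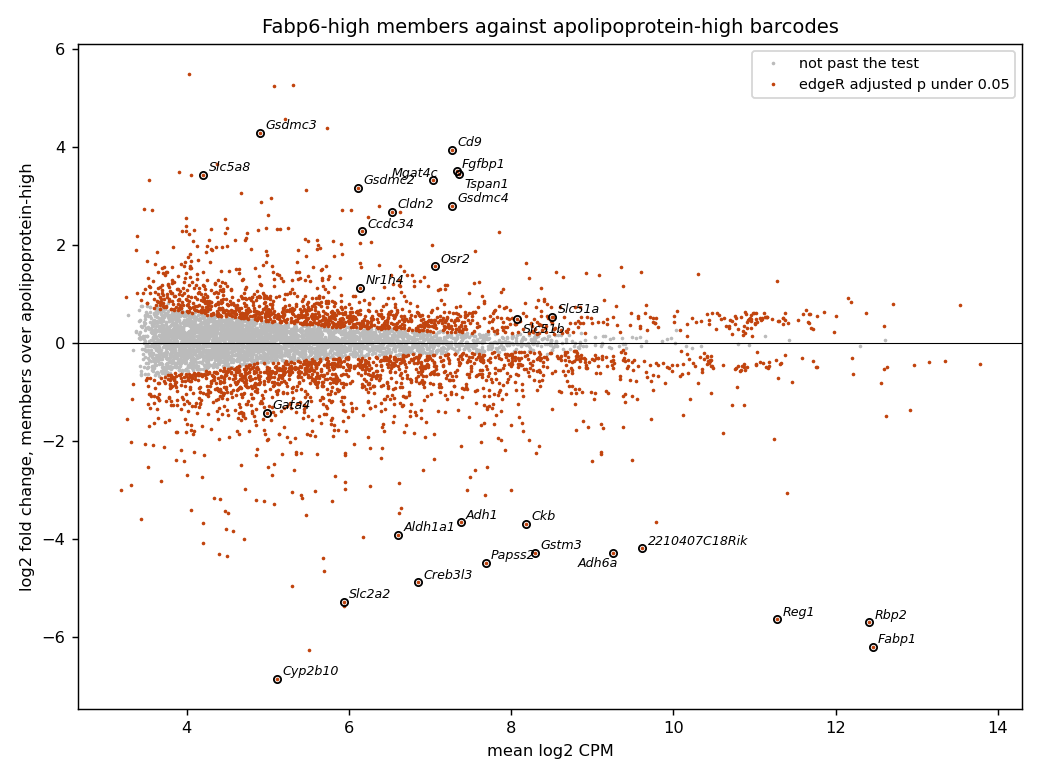
Each point is 1 of the 6736 genes tested, placed by its mean log2 CPM and its log2 fold change of members over apolipoprotein-high barcodes; circled genes are named. Fabp1, Rbp2 and Reg1 lie at the bottom right near -6, and Cd9, Fgfbp1 and Tspan1 lead the abundant genes that were higher in members.

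Fat absorption genes were lower as a group. All 19 tested genes of the 27 on that list were lower in members, with a median log2 difference of -1.47, in a comparison with cells chosen for apolipoprotein RNA. Fabp1, the fatty acid carrier of the proximal gut, stood at 160.3, 124 and 104 CPM and at 60.4, 461 and 132 CPM in members. It stood at 9919, 10318 and 5043 CPM and at 12129.9, 12802 and 14293 CPM in apolipoprotein-high barcodes. The classes lay far apart in every library (-6.21 ± 0.18, edgeR adjusted p = 2.98e-24). The transcription factor gene Creb3l3, which drives apolipoprotein genes, differed by -4.88 ± 0.14, the second fatty acid carrier gene Fabp2 by -3.07 ± 0.08, and Mttp, needed to load lipid onto apolipoprotein B, by -2.28 ± 0.07. Fabp1 in members was highest in replicate 2 labelled Itgb7 KO, as were the retinol carrier Rbp2 (624 CPM against 125 to 206 in the other libraries) and Reg1 (308 CPM against 42.4 to 103). That library also held the most apolipoprotein-high barcodes (261), and the part of those barcodes in its member values was not tested.

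Transcription factors of intestinal regions split in both directions. Of 15 tested, 7 were higher and 6 lower in members. Osr2 stood at 171 to 212 CPM in members and 39.2 to 81.2 CPM in apolipoprotein-high barcodes (1.56 ± 0.11, edgeR adjusted p = 1.07e-13). The caudal-type factor gene Cdx1, active toward the distal gut, was higher by 1.23 ± 0.08 and Klf4 by 0.90 ± 0.18, and the nuclear receptor gene Nr5a2 was higher too (27.1 to 42.7 CPM against 4.77 to 18.3 CPM). Klf4 lost its call with an apolipoprotein limit of 100 (edgeR adjusted p = 0.0962, the largest over the alternatives). Gata4, which sets the proximal program and is normally shut off in the ileum, stood at 12.2 to 24.9 CPM in members and 28.6 to 54.9 CPM in apolipoprotein-high barcodes (-1.42 ± 0.18, edgeR adjusted p = 3.04e-08). Onecut2 was lower by a larger margin (6.6 to 18.1 CPM against 24.9 to 98 CPM, -2.59 ± 0.19), followed by Tbx3 (-0.94 ± 0.25) and Maf (-0.88 ± 0.11). The ranges of Osr2 and Gata4 did not overlap between the classes over the 6 libraries.

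Digestive enzymes and nutrient carriers were mostly lower in members. Of 18 brush border enzyme genes tested, 14 were lower and 2 higher, with a median of -1.40. The lactase gene Lct stood at 0 to 12.9 CPM in members and at 60.1 to 293 CPM in apolipoprotein-high barcodes (-5.37 ± 0.19, edgeR adjusted p = 4.38e-22), and the peptidase genes Mme (-4.66 ± 0.19) and Ace (-3.48 ± 0.24) and the ceramidase gene Asah2 (-3.79 ± 0.28) followed. The exceptions were the metalloprotease gene Mep1a (52.5 to 134 CPM against 17.9 to 30.7 CPM, 2.03 ± 0.16) and Naaladl1 (1.47 ± 0.13). Of 18 sugar, peptide and amino acid transporter genes, 14 were lower, among them the basolateral glucose carrier Slc2a2 (-5.29 ± 0.20), the neutral amino acid carrier Slc6a19 (-4.32 ± 0.26), the peptide carrier Slc15a1 (-3.41 ± 0.30) and the fructose carrier Slc2a5 (-3.16 ± 0.24). Members held more of 3 others. Slc5a8, which takes up monocarboxylates such as short-chain fatty acids, stood at 28, 30.8 and 18.3 CPM and at 28.7, 32.9 and 33.9 CPM in members, against 1.37 to 7.84 CPM in apolipoprotein-high barcodes (3.43 ± 0.33, edgeR adjusted p = 1.01e-10). The glutamate carrier Slc1a1 (1.62 ± 0.15) and the glutamine carrier Slc1a5 (0.80 ± 0.22) were the others, and Slc1a5 no longer passed without dividing barcodes (adjusted p = 0.0876, the largest over the alternatives).

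Iron, calcium and vitamin genes were lower in 9 and higher in 3 of 15 tested. The retinol carrier Rbp2 (-5.70 ± 0.17), the calcium-binding S100g (-3.01 ± 0.22), the ferritin gene Fth1 (-1.36 ± 0.06) and the folate carrier Slc46a1 (-1.22 ± 0.18) were lower. The phosphate carrier Slc34a2 (1.39 ± 0.32), the iron exporter Slc40a1 (0.92 ± 0.21) and the calcium pump Atp2b1 (0.55 ± 0.12) were higher. Slc40a1 lost its call without the library block (adjusted p = 0.0582, the largest over the alternatives).

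Ion and water transport showed an exchange within one hormone pair. The guanylin gene Guca2a stood at 559 to 1091 CPM in members and 180.3 to 431 CPM in apolipoprotein-high barcodes (1.54 ± 0.10, edgeR adjusted p = 5.25e-15). The uroguanylin gene Guca2b went the other way (193 to 594 CPM against 677 to 1663 CPM, -1.72 ± 0.13, edgeR adjusted p = 6.82e-13). Both peptides activate the same intestinal guanylate cyclase. The chloride channel Cftr (1.36 ± 0.14) and the potassium channel subunits Kcnq1 (1.57 ± 0.20) and Kcne3 (1.55 ± 0.17) were higher. The anion exchanger Slc26a6 (-1.42 ± 0.09) and the scaffold gene Slc9a3r1 (-1.35 ± 0.07) were lower. In all 5 of the 16 tested genes were higher and 8 lower.

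Among 20 tested antimicrobial and barrier genes 7 were higher and 12 lower in members. Gasdermin C genes led: Gsdmc3 stood at 36.8, 46.2 and 45 CPM and at 60.4, 49.4 and 59.3 CPM in members, against 0 to 2.73 CPM in apolipoprotein-high barcodes (4.28 ± 0.28, edgeR adjusted p = 9.3e-15). Gsdmc2 (3.16 ± 0.16) and Gsdmc4 (2.79 ± 0.12) were higher as well, and reads of such similar genes may be split uncertainly between them. The hydrogen peroxide-producing oxidase gene Duox2 (34.3 to 72.9 CPM against 2.05 to 18.3 CPM, 2.86 ± 0.24) and its maturation factor Duoxa2 (3.05 ± 0.29) were higher too. The lectin genes Reg3b (0.77 ± 0.12) and Reg3g (0.79 ± 0.11) passed with the library block and lost the call without it (edgeR adjusted p = 0.447 and 0.147, the largest over the alternatives). In wild-type replicate 1 both stood lower in members, Reg3b at 21137 CPM against 24506. Their relative Reg1 was lower in members (-5.64 ± 0.13), as were 2210407C18Rik (-4.19 ± 0.12), the cytokine gene Il18 (-2.54 ± 0.09) and the gasdermin D gene Gsdmd (-1.65 ± 0.14).

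MHC class II genes, which present antigen to CD4 T cells, were higher in members (6 of 7 tested, median 1.31), while MHC class I genes were lower (11 of 14, median -0.50). The invariant chain gene Cd74 stood at 369, 45.4 and 398 CPM in wild-type members and 184, 25.3 and 105 CPM in apolipoprotein-high barcodes. In the libraries labelled Itgb7 KO it stood at 869, 1217 and 1688 CPM against 369.7, 366 and 436 CPM. Members were higher in each of the 6 libraries although the libraries themselves differed, with wild-type replicate 2 lowest in both classes (1.42 ± 0.10, edgeR adjusted p = 3.42e-14). H2-Aa (1.92 ± 0.23), H2-DMb1 (1.52 ± 0.28) and H2-Eb1 (1.31 ± 0.21) were also higher. Of 15 T cell list genes in the files 10 had no UMI in members, among them Cd3d, Cd3e, Cd8a and Ptprc, which leukocytes carry in general. The other 5 (Ccl5, Gzma, Itgae, Cd3g and Nkg7) gave 10 UMIs in members, all in wild-type replicate 1, where the list stood at 4.18 CPM against 3.19 CPM in other kept barcodes. Cd74 passed the test under each alternative, that without this library included (largest edgeR adjusted p = 0.0149, with no library block). The T cell list was not made to detect B cells, dendritic cells or macrophages. The part of such cells in the MHC class II values was not tested. The class I-type genes H2-Q1 (-3.51 ± 0.16) and H2-Q2 (-2.18 ± 0.10) were lower, and they are close relatives whose reads may be split. Interferon response genes were lower in 9 and higher in 2 of 16 tested, with Ifit1 (-2.42 ± 0.36) and Isg15 (-1.92 ± 0.21) among the lower.

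By the naming rule, 12 abundant genes led in each direction. The tetraspanin gene Cd9 stood at 202, 303 and 235 CPM and at 223, 293 and 385 CPM in members, against 7.46 to 26.9 CPM in apolipoprotein-high barcodes (3.93 ± 0.13, edgeR adjusted p = 7.78e-23). Fgfbp1, whose product releases stored growth factors (3.50 ± 0.12), the tetraspanin gene Tspan1 (3.45 ± 0.12), the claudin gene Cldn2 of leaky tight junctions (2.66 ± 0.15), the cyclin gene Ccnd1 (2.78 ± 0.17) and the desaturase gene Scd2 (2.66 ± 0.21) followed. Other kept barcodes also held much Cd9 (158 CPM), Fgfbp1 (95.9 CPM) and Tspan1 (146 CPM). Mgat4c, a glycosyltransferase gene, differed in that respect: 149 to 271 CPM in members, 13.7 to 39.2 CPM in apolipoprotein-high barcodes (3.31 ± 0.16) and 6.86 to 19.3 CPM in all others. Among the lowest in members were Papss2, which makes the sulfate donor (-4.49 ± 0.13), the retinal-oxidizing Aldh1a1 (-3.92 ± 0.12), the creatine kinase gene Ckb (-3.69 ± 0.09) and the alcohol dehydrogenase gene Adh1 (-3.66 ± 0.11).

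**Figure D4:**
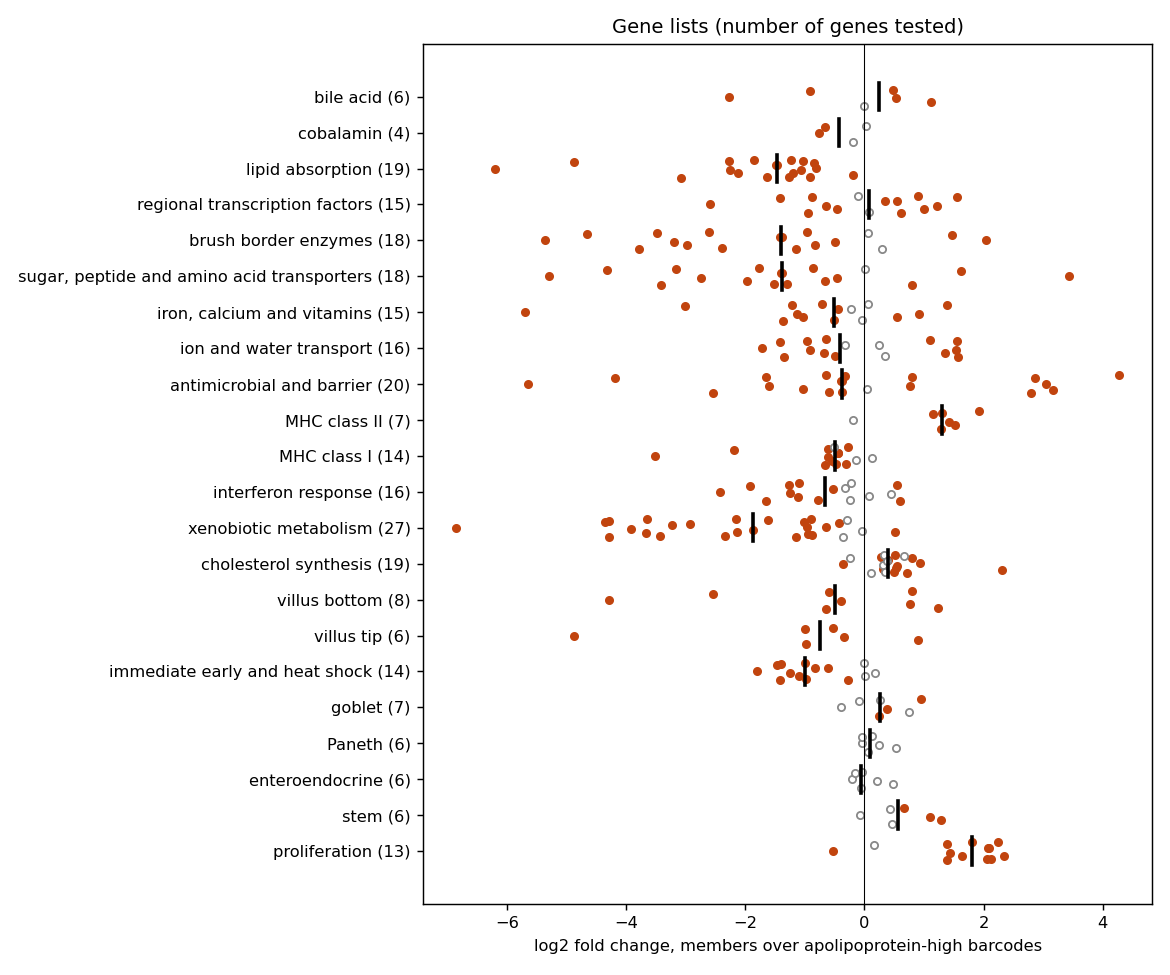
Log2 fold change of members over apolipoprotein-high barcodes for each tested gene of each list (filled points passed the edgeR test, open points did not, black bars are list medians). The lipid absorption genes and most xenobiotic genes lie left of 0, most MHC class II genes right of 0, and the antimicrobial list spreads in both directions.

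Position on the villus and markers of other cells were examined as lists. Of 13 proliferation genes 11 were higher in members (median 1.80), such as Mki67 (2.25 ± 0.26) and Ccnb1 (2.34 ± 0.25), while Pcna was lower (-0.52 ± 0.13), a call lost without wild-type replicate 2 (edgeR adjusted p = 0.0706, the largest over the alternatives). Without dividing barcodes 8 were tested, 2 higher and 1 lower. Stem cell markers were higher in 3 of 6 tested, led by Clca3b (1.28 ± 0.16), with list sums of 173 to 246 CPM in members against 515 to 743 CPM in other barcodes. Of the villus tip list 5 of 6 tested genes were lower, among them the late enterocyte keratin gene Krt20 (-0.52 ± 0.07), and of the villus bottom list 3 were higher and 5 lower. Immediate early and heat shock genes, which can rise during cell isolation, were lower in 11 of 14 tested (3126 to 4775 CPM summed in members, 4177 to 7825 CPM in apolipoprotein-high barcodes). Goblet markers were higher in 3 of 7 (Ccl9, Spink4 and Tff3) and in 0 of 6 without dividing barcodes. Their sums overlapped between the classes (1032 to 2932 CPM against 967 to 2999.9 CPM) and were 18486 to 27298 CPM in other barcodes. Paneth and enteroendocrine lists had 0 of 6 called each, and no tuft or T cell marker was abundant enough to test. Paneth RNA was far higher in replicate 1 of both groups (7892 and 4856 CPM in members) than in the other libraries (169 to 502 CPM), with like values in apolipoprotein-high barcodes (8406 and 4237 CPM, then 187 to 375 CPM). The part of these lists in the other differences was not tested.

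Members also varied among themselves. Across 683 members thinned to 2000 UMIs, Spearman's rho with Fabp6 was computed within each library for 1295 genes, as a description of cells that share library and depth. It was highest on average for Reg3b (0.37, from 0.22 to 0.49 over libraries), Krt19 (0.27), Reg3g (0.27), Guca2a (0.26), the dipeptidase gene Dpep1 (0.26) and Crip1 (0.25). It was lowest for Ptma (-0.30), Lgals2 (-0.24) and the ribosomal protein gene Rps23 (-0.22). These correlations were weak, and the genes are the ends of a ranking within cells selected for Fabp6.

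Whether members were fewer in libraries labelled Itgb7 KO could not be settled with 3 libraries a group. Members made up 3.71%, 2.58% and 3.89% of kept barcodes in wild-type and 2.72%, 1.33% and 2.17% in the other group, with exact (Clopper-Pearson) 95% intervals of 3.04 to 4.49, 2.16 to 3.05, 3.38 to 4.46, 2.15 to 3.40, 1.05 to 1.66 and 1.77 to 2.63. These intervals cover counting error only. The groups overlapped, since wild-type replicate 2 lay below replicate 1 labelled Itgb7 KO, while within the pairs of the same replicate number the latter group was lower in 3 of 3 (exact permutation over pairs, p = 0.25, the smallest possible). The means were 3.39% ± 0.71 and 2.07% ± 0.70 (SD, n = 3; exact 2-sided permutation test, p = 0.2, where 0.1 is the smallest possible). Without dividing barcodes, an alternative chosen after seeing the data, the shares were 5.82%, 5.19% and 5.88% against 5.03%, 2.45% and 3.64%. This alternative also changed the denominator, with 1305, 1947 and 2430 kept barcodes left in wild-type and 1212, 2492 and 2089 in the other group. There the groups did not overlap, and the difference was -1.93 percentage points against -1.32 (exact permutation p = 0.1, the smallest possible). With at least 14000 UMIs per barcode it was -0.07 points (exact permutation p = 0.9), but replicate 3 labelled Itgb7 KO then kept 33 barcodes with 1 member. Without that library, also chosen after seeing the data, the difference at this depth was -0.56 points (exact permutation p = 0.8). Depth and the lower limit on UMIs differed between libraries.

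Within members no gene passed the genotype test. Of 7726 genes 0 (0%) were called by edgeR's quasi-likelihood test, 265 had an unadjusted p under 0.05, and with DESeq2 the count was 4. The nearest was Agpat4 (ENSMUSG00000023827, chromosome 17, positions 12118704 to 12219645, plus strand), which encodes an acyltransferase of phospholipid synthesis. It stood at 47.7, 44.7 and 34.2 CPM in wild-type members and at 7.9, 11.5 and 3.39 CPM in members labelled Itgb7 KO, from 248 and 20 UMIs in all. The groups lay apart (log2 difference -2.43 ± 0.33, edgeR adjusted p = 0.148). Between same-numbered libraries of the 2 groups, deviations from the group mean correlated at 0.72, 0.23 and 0.36. Wild-type replicate 2 correlated better with replicate 3 labelled Itgb7 KO (0.53), so the pairing was uncertain. With the replicate number as a block in the fit, Agpat4 was the 1 gene called (-2.50, edgeR adjusted p = 0.0231). Over all alternatives it ran from -2.73 to -2.18, with adjusted p from 7.08e-11 to 0.769. Within the wild-type libraries its level was highest in members: 42.2 ± 7.1 CPM, against 16.3 ± 1.4 CPM in other kept barcodes and 1.80 ± 0.98 CPM in apolipoprotein-high ones (SD, n = 3), the last from 3 UMIs. In the libraries labelled Itgb7 KO the order was the same at lower levels (7.61 ± 4.08, 2.18 ± 0.28 and 0.12 ± 0.21 CPM). Agpat4 lay below the count filter of the class comparison, and these differences between classes were not tested.

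The bile acid genes did not separate the genotypes. Slc51a differed by 0.15 ± 0.22, Slc51b by 0.11 ± 0.17, Nr1h4 by -0.08 ± 0.20, Slc10a2 by 0.13 ± 0.30 and Fgf15 by 1.17 ± 0.65 on the log2 scale (libraries labelled Itgb7 KO over wild-type, edgeR adjusted p = 0.995 for each). None of the 8 tested had groups that did not overlap. Over all genes, 309 (4%) were higher without overlap in libraries labelled Itgb7 KO and 403 (5.22%) lower, and 51.1% had a positive difference. Cdh1, the E-cadherin gene to which the αEβ7 integrin binds, differed by -0.20 ± 0.21 (edgeR adjusted p = 0.995), and Itgae, the α partner, gave UMIs in wild-type replicate 1 alone (0.837 CPM).

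MHC and interferon genes had mostly positive differences in the libraries labelled Itgb7 KO, none of which passed the test. All 7 tested MHC class II genes had a positive difference (median 1.74), 6 of them without overlap, against 4% of all genes. All 14 MHC class I genes (median 0.50, 7 without overlap) and 15 of 16 interferon response genes (median 1.11, 6 without overlap) were positive too. These lists were chosen with earlier results of these data known, so the share of all genes is not a neutral expectation for them. Such differences were not confined to members. In other kept barcodes, MHC class II genes summed to 131 to 441 CPM in wild-type and 810 to 982 CPM in the other group. In apolipoprotein-high barcodes they summed to 126 to 415 CPM and 621 to 787 CPM. Class I sums in other kept barcodes were 2336 to 2564 CPM against 3119 to 3311 CPM. Interferon response sums there were 645 to 850 CPM against 927 to 1538 CPM. The interaction test called no gene of these lists. H2-Aa stood at 25.5, 0.733 and 15 CPM in wild-type members and 84.1, 57.6 and 102 CPM in the other group (2.42 ± 0.54, edgeR adjusted p = 0.772). Psmb8, an immunoproteasome subunit gene, stood at 158, 97.5 and 174 CPM and at 310, 314 and 317 CPM (1.12 ± 0.23, edgeR adjusted p = 0.669). Ifit1bl1 (1.36 ± 0.24, adjusted p = 0.363) and the peptide transporter gene Tap1 (1.03 ± 0.24) were alike in direction. DESeq2 called Psmb8, Ifit1bl1, Agpat4 and 2210407C18Rik. The epidermal growth factor family gene Areg stood at 41.8, 91.6 and 59.6 CPM in wild-type members and 23.7, 34.6 and 22 CPM in the other group (-1.25 ± 0.29, edgeR adjusted p = 0.772). The cell cycle genes Ube2c (-0.79 ± 0.27) and Cks1b (-0.71 ± 0.23) were also lower without overlap, with edgeR adjusted p = 0.995 for each. All 10 Paneth genes tested had a negative difference (median -0.69) with 0 free of overlap, the list whose RNA was high in replicate 1 of both groups.

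**Figure D5:**
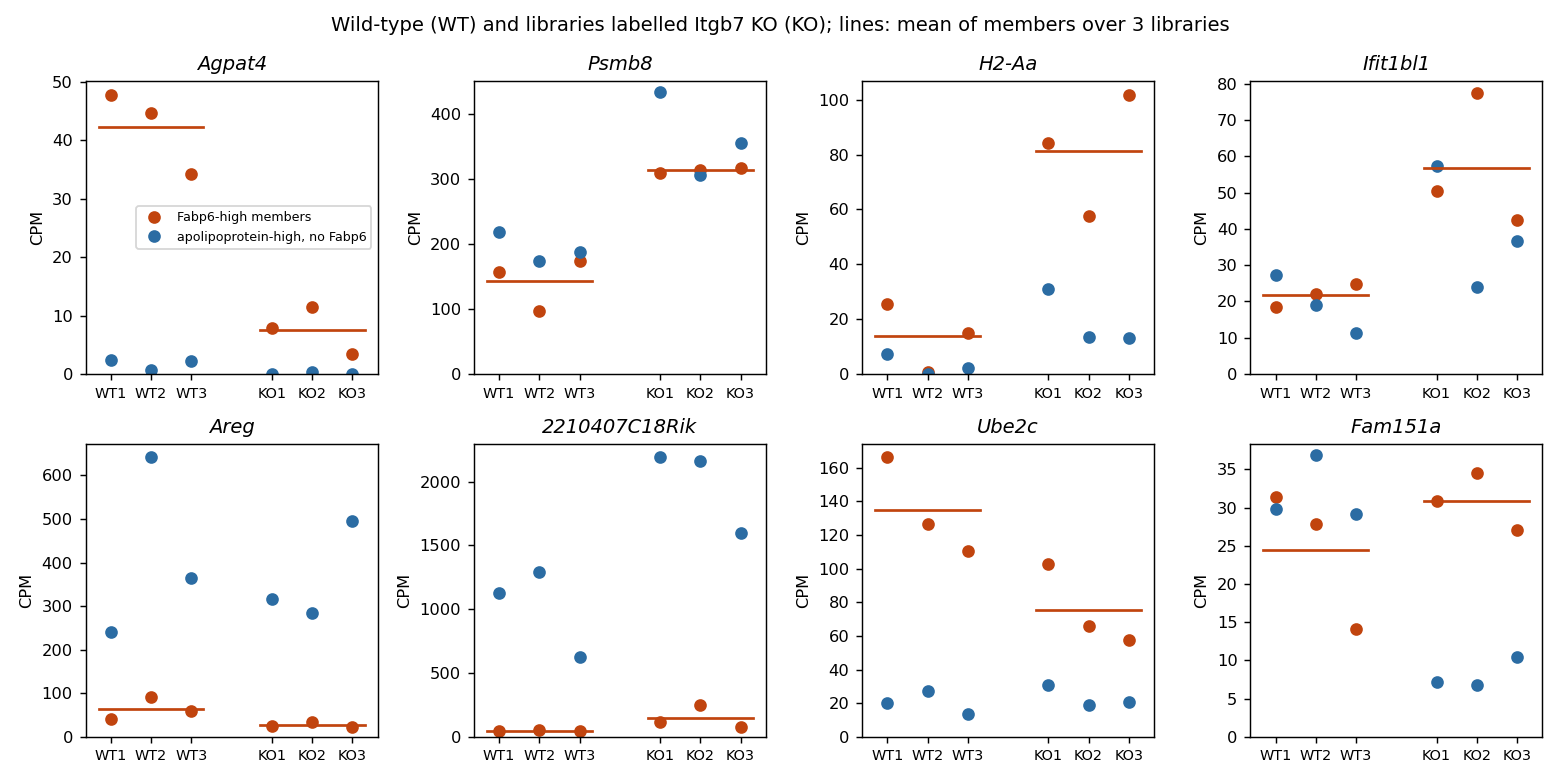
CPM of 8 genes in members and in apolipoprotein-high barcodes of each library, with lines at the mean of members over 3 libraries. Agpat4, Areg and Ube2c are lower and Psmb8, H2-Aa, Ifit1bl1 and 2210407C18Rik higher in members labelled Itgb7 KO, none of them called by edgeR without a block, and Fam151a differs between genotypes in apolipoprotein-high barcodes.

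Whether the genotype difference in members was unlike that in apolipoprotein-high barcodes was tested with an interaction term. Of 7476 genes 1 (0.0134%) was called, Fam151a (ENSMUSG00000034871, chromosome 4, positions 106733889 to 106748292, plus strand). It stood at 31.4, 27.8 and 14.1 CPM in wild-type members and 30.9, 34.6 and 27.1 CPM in members labelled Itgb7 KO, where the groups overlapped. In apolipoprotein-high barcodes it stood at 29.8, 36.9 and 29.2 CPM in wild-type and 7.16, 6.82 and 10.5 CPM in the other group, without overlap. Replicates 1 and 3 labelled Itgb7 KO held 419212 and 382769 UMIs in that class, so their 7.16 and 10.5 CPM came from a few Fam151a UMIs each. The difference of differences was 2.48 ± 0.44 on the log2 scale (edgeR adjusted p = 0.0121). It did not pass without wild-type replicate 2 (adjusted p = 0.293), without replicate 2 labelled Itgb7 KO (0.548) or with DESeq2. Over all alternatives it ran from 2.08 to 2.71, with adjusted p from 0.000557 to 1.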

How the data were processed

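Members and gene lists were chosen with earlier results of these data known. The authors deposited raw UMI counts in whole numbers for each gene in each barcode. Cell Ranger 2.1.1, Seurat, bcl2fastq 2.17.1.14 and the mm10 build are named in the submitters' processing notes. Of 26153 barcodes 108 failed the limits on genes or mitochondrial share. Doublets stayed in: Scrublet's automatic threshold marked under 0.5% of barcodes in 5 of 6 libraries, and leaving out the highest-scoring 0.8% per 1000 barcodes (977 barcodes, 7 members) was an alternative. Goblet-high barcodes had at least 100 UMIs per 10000 of the goblet genes.

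For each library and class the UMI counts were added up and tested with edgeR 4.0.16 in R 4.3.3 (quasi-likelihood test, TMM scaling, filterByExpr, Benjamini-Hochberg adjustment over all genes tested), after a check on simulated data. The rules' genes stayed in library sizes and out of the tests. DESeq2 1.42.0 was an alternative. The genotype fit had no covariate, and the class and interaction fits had the library as block. Same-numbered libraries of the 2 groups deviated together (correlations of 0.72, 0.23 and 0.36 over 3752 genes), although wild-type replicate 2 correlated best with replicate 3 labelled Itgb7 KO (0.53). The main genotype fit was therefore not paired, and the replicate number entered as a block in alternatives only. Named genes were the bile acid and cobalamin lists, Itgb7, Itgae, Cdh1 and Agpat4, up to 4 called genes per list and direction, the 12 largest differences per direction between classes (mean log2 CPM of at least 6), the 8 lowest p per direction without overlap between genotypes (at least 5), called interaction genes, and the 6 highest and 3 lowest correlations with Fabp6; some genes this rule names are not reported here. Gene positions are from GENCODE M21.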

Additional observations from a re-analysis of the deposited data

Results flagged for a closer look

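Fam151a was picked out because its genotype difference was not alike in the 2 classes by the interaction test (2.48 on the log2 scale, edgeR adjusted p = 0.0121). The log2 difference within members, libraries labelled Itgb7 KO over wild-type, was 0.34 ± 0.32 (edgeR adjusted p = 0.995). The wild-type sums of apolipoprotein-high barcodes rested on 19, 121 and 37 barcodes and those of the other group on 24, 261 and 54.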

How the results depend on the processing

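Between members and apolipoprotein-high barcodes, 2108 (DESeq2) to 3381 genes were called over all alternatives and 2177 to 2747 with 1 library left out, against 2827. Upper-quartile scaling called 1683 higher and 1299 lower (56.4% higher against 46.5%), moved the median of all genes from 0.02 to 0.10, and raised the cholesterol list from 11 to 16 higher. Of the named class results under the alternatives, 1974 kept direction and side of the threshold, 44 lost and 2 gained the call, and Ccl9 turned to -0.15 without dividing barcodes. The genotype count of 0 became 4 with DESeq2, 64 (46 higher) with no filter on low counts, 1 with the replicate block, 1 with a block for 2 groups of serial numbers in the libraries' names and 1 with at most 10% mitochondrial UMIs. Leaving out 1 library gave 0 to 1, the 1 (Rtp4) without replicate 3 labelled Itgb7 KO. The replicate block changed no other call and gave p = 0.25 for the share of members, the smallest it allows (exact permutation over 3 pairs), whose difference lay between -1.73 and -0.948 points with 1 library left out. The interaction count of 1 became 0 with DESeq2, with Fabp6 limits of 10 or 50, with an apolipoprotein limit of 100 and without dividing barcodes, 2 with no filter or at most 10% mitochondrial UMIs, 3 with Fabp6 under 1 in the comparison class and 6 with serial groups, and 0 to 4 with 1 library left out (0 without wild-type replicate 2, 4 and 2 without replicates 1 and 2 labelled Itgb7 KO). Slc51b moved from 319.9 CPM to 369 with a Fabp6 limit of 50 and 375 without dividing barcodes. Slc10a2 moved from 12.1 CPM to 9.91 and 16.1 with limits of 10 and 50, and to 14.9 without dividing barcodes. The causes were not tested beyond fewer barcodes or genes entering. Gene tests at 14000 UMIs or more were not run, since 1 library kept too few members, and the limit of 100 left wild-type replicate 3 with no comparison barcode. In the shallowest member sums, of 590040 UMIs, 3 counts correspond to about 5.08 CPM.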

Other observations

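Cholesterol synthesis and drug metabolism genes moved in different directions between the classes. Of 19 cholesterol genes tested 11 were higher in members and 1 lower (median 0.39, against 19.5% and 22.5% of all genes), and 6 were higher with DESeq2. The pathway enzyme genes Sqle (0.93 ± 0.17), Idi1 (0.81 ± 0.12) and Nsdhl (0.71 ± 0.21) were higher, and the regulator Insig1 was lower (-0.35 ± 0.12), a call that several alternatives lost. Nsdhl lost its call without dividing barcodes (0.48, edgeR adjusted p = 0.1001).

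Of 27 xenobiotic metabolism genes tested 23 were lower in members and 1 higher (median -1.87). Cyp2b10, a drug-metabolizing cytochrome P450 gene, stood at 0 to 1.65 CPM in members and 24.7 to 243 CPM in apolipoprotein-high barcodes (-6.85 ± 0.29, edgeR adjusted p = 8.45e-20). Cyp2c66 (-4.36 ± 0.30), Adh6a (-4.28 ± 0.12) and the glutathione transferase gene Gstm3 (-4.28 ± 0.12) were lower as well. The exception was the efflux pump gene Abcb1a, at 42.4 to 76.3 CPM in members and 34.8 to 49.6 CPM in apolipoprotein-high barcodes (0.51 ± 0.14, edgeR adjusted p = 0.00374). Both classes thus held Abcb1a RNA, in ranges that overlapped, while the pump gene Abcc2 was lower in members.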
